A study of Mus musculus with 4 samples.

Results

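Sprr1a-positive basal cells are the airway basal cells of these mouse tracheas that carried the transcript of a cornified envelope protein. They were picked by thresholds on single-cell counts of unique molecular identifiers (UMIs, each standing for 1 captured transcript). A cell had to show at least 300 genes and no more than 20% mitochondrial UMIs. The 4 basal genes Krt5, Krt14, Krt15 and Aqp3 had to sum to 0.2% or more of its UMIs. Scgb1a1, of club cells, had to stay under 2%, the ciliary genes Ccdc153, Tmem212, Dynlrb2 and Rsph1 together under 0.2%, and the hillock keratins Krt13 and Krt4 together under 0.1%. Cells that met these limits are called basal-gated. Among them, members had Sprr1a at 5 or more per 10000 UMIs and Serpinb2 below 5 per 10000. The rule found 1239 members among 3701 basal-gated cells, 20359 cells that passed the gene and mitochondrial limits, and 21667 barcodes. The working name of these cells was wound-like. Of the markers given with that name, Krt17 and Snai2 were higher in the members than in resting basal cells in all 4 libraries, but Krt75 was not, so the cells are named here by Sprr1a alone.

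The study sequenced tracheal cells of 4 kinds of mice on the 129S6/SvEvTac background, with 1 library each. They were wild-type mice, the bgh line with a mutated Spef2, the nm1054 line, which lacks Cfap221, and Cfap54gt/gt mice, whose Cfap54 carries a gene trap. The 3 mutant lines are models of primary ciliary dyskinesia with defects of the central pair of the ciliary axoneme. The mice were 5 to 8 months old, and each library pooled cells from 6 tracheas (5 for bgh), so the spread between animals cannot be seen. Tracheas were digested with pronase, the cells stood on culture dishes to take out fibroblasts, and dead cells were removed before loading. The barcodes carry a library number from 1 to 4, and no source used here ties a number to a genotype. The libraries are therefore given by number, no genotype is compared, and no p-value is given, because libraries are not replicates of 1 group and cells are not replicates.

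Basal cells are the stem cells of the pseudostratified airway epithelium. They sit on the basement membrane, carry keratin 5 and the transcription factor p63, and renew secretory and ciliated cells after injury. Sprr1a encodes a small proline-rich protein, one of a family of precursors that transglutaminases cross-link under the membrane of squamous cells to form the cornified envelope. The family lies with involucrin in the epidermal differentiation complex, a gene cluster of mouse chromosome 3, and its members are known to be induced in stressed, injured and squamous epithelia. AP-1, the dimer of Fos and Jun proteins, is a known regulator of several of these promoters.

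The promoters of Sprr1a and of the 2 genes that stood above the others in the members, Sprr2k and Ivl, are shown because the 3 genes lie in that cluster and were high in the same cells. Each window is the RefSeq sequence on build GRCm38.p6 from 250 bases before to 50 after a start site, and capitals mark the AP-1 motif TGANTCA, which is its own reverse complement. Sprr1a lies at chr3:92485832-92486131 on the minus strand, Sprr2k at chr3:92432332-92432631 on the plus strand and Ivl at chr3:92573686-92573985 on the minus strand.
Sprr1a: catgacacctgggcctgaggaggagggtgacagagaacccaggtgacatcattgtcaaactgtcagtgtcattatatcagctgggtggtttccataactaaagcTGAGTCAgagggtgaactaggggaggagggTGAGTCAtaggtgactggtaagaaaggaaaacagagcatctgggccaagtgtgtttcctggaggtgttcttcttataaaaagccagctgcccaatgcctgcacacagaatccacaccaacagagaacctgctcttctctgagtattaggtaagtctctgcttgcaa
Sprr2k: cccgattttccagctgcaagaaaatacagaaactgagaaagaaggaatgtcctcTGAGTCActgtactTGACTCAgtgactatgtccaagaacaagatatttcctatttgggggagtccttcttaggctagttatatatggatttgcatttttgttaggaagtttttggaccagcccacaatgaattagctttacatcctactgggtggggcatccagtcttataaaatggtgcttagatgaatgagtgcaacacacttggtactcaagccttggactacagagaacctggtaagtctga
Ivl: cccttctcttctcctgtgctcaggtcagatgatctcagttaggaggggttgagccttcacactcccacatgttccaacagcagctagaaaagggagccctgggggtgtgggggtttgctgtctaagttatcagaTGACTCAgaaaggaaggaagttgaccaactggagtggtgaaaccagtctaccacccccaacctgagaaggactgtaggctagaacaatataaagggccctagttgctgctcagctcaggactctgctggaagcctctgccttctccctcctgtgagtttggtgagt
The motif starts 146 and 116 bases before the start site of Sprr1a, 196 and 182 bases before that of Sprr2k and 116 bases before that of Ivl. Of all 32851 promoters of the same length in that table, 7.81% held the motif and 0.460% held it more than once. Among the promoters of genes counted in the comparison with resting basal cells the share was 5.16% of 7970. Of the 8 cornified envelope genes counted there, 6 had a promoter in the table, and 4 of their 7 promoters held it, those of Ivl, Sbsn, Sprr2e and Sprr2k. A motif match describes these letters and does not show that a factor bound there.

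Members made up 40.8% of basal-gated cells in library 1 (238 of 583, exact Clopper-Pearson 95% interval 36.8% to 44.9%). In library 2 the share was 43.4% (259 of 597, 39.4% to 47.5%), and in library 3 it was 37.6% (480 of 1275, 35.0% to 40.4%). In library 4 it was 21.0% (262 of 1246, 18.8% to 23.4%), below the other libraries with an interval that did not overlap theirs. These intervals, like all intervals here, cover counting error only. Of all cells that passed the limits, members were 6.25%, 6.55%, 6.71% and 4.82% in libraries 1 to 4. With a stricter Sprr1a threshold of 10 per 10000, the shares of basal-gated cells were 33.6%, 38.4%, 32.2% and 13.5%.

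The lower share in library 4 was not limited to cells low in Serpinb2, a serpin of suprabasal cells. Among basal-gated cells below the Serpinb2 threshold, 50%, 53.5%, 48% and 26.5% reached the Sprr1a threshold in libraries 1 to 4. Among the 753 basal-gated cells at or above it, 69.2%, 77.0%, 49.8% and 31.8% did, so libraries 1 and 2 lay above libraries 3 and 4 there. The same Sprr1a level was reached by 10.9%, 26.7%, 11.3% and 3.37% of secretory-gated cells, again with library 4 lowest. These had Scgb1a1 at 2% or more, with the ciliary genes and the 4 basal genes of the rule each summing to under 0.2%. Ciliated-gated cells had the ciliary genes at 0.2% or more and the basal genes under 0.2%. They gave 1.80%, 2.28%, 2.89% and 1.25%, or 2.08% over all libraries. Whether free RNA or mixed droplets left this signal was not tested. Under 2000 UMIs, where 1 UMI reaches the threshold, lay 1758 of the 4719 ciliated-gated cells and 49 of the 1239 members. The median depth was 2658 UMIs in ciliated-gated cells and 4030 in members.

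**Figure D1:**
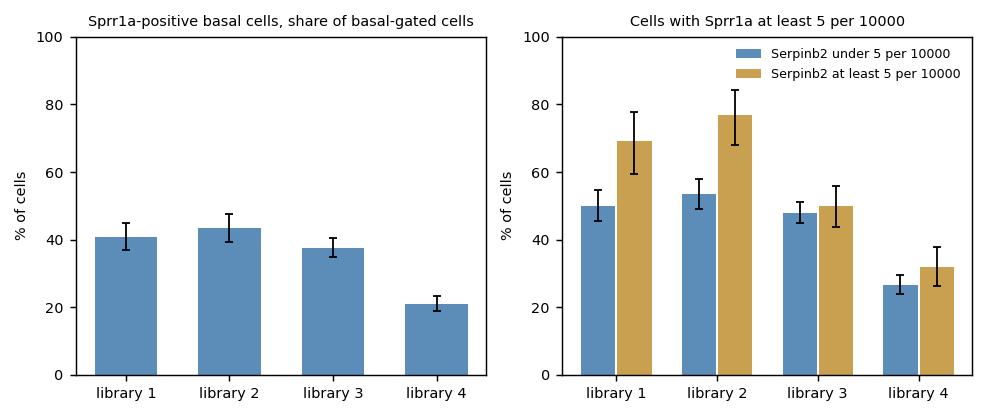
Left, Sprr1a-positive basal cells as a percentage of basal-gated cells in each of the 4 libraries. Right, the percentage of cells at or above 5 Sprr1a UMIs per 10000 among basal-gated cells below (blue) and at or above (ochre) the Serpinb2 threshold, with exact 95% binomial intervals as error bars in both panels. Library 4 is lowest in each series, at 21.0% on the left and 26.5% and 31.8% on the right.

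Sprr1a itself (ENSMUSG00000050359) chose the cells, so its values only describe them. Summed over members it stood at 3667, 5801, 4183 and 2195 UMIs per 1000000 (CPM) in libraries 1 to 4. Resting basal cells, the 1709 basal-gated cells under both thresholds, had 76.8, 93.7, 60.4 and 73.2 CPM. Members of library 2 carried the most Sprr1a and those of library 4 the least. In resting cells, which the rule holds under 5 per 10000, library 2 was highest and library 3 lowest, with intervals (75.6 to 115 and 49.4 to 73.1 CPM) that did not overlap. Single members ranged from 5.01 to 302 Sprr1a UMIs per 10000, with a median of 27.1 and quartiles of 12.3 and 55.4. The highest resting cell had 4.99. Within 1 per 10000 of the threshold lay 49 members and 66 resting cells. In a cell of fewer than 10000 UMIs, 1 UMI stands for more than 1 per 10000, so this window misses cells that 1 UMI could move. At 5 to 10 per 10000 lay 235 members, which were 17.6%, 11.6%, 14.4% and 35.9% of the members of libraries 1 to 4.

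The number of Sprr1a UMIs per cell is in part set by the threshold, which asks for at least 2 in a cell above 2000 UMIs. Of the 1239 cells, 702 (56.7%) had 10 or more Sprr1a UMIs, 283 had 5 to 9, 165 had 3 to 4, 78 had 2 and 11 (0.888%) had 1. Of the resting cells, 1357 (79.4%) had none, 235 had 1 and 65 had 2. When the cells were chosen on a random 50% of their UMIs and Sprr1a was read in the rest, the chosen cells had 3726, 5624, 4088 and 2170 CPM and the resting cells 127, 142, 147 and 148 CPM. The members' Sprr1a level was thus also seen in UMIs that the choice did not use. In the other classes, Sprr1a was at 1674, 3169, 1492 and 641 CPM in Serpinb2-positive basal cells, at 776, 3135, 854 and 495 CPM in hillock-gated cells and at 198, 546, 214 and 65.0 CPM in secretory-gated cells. Library 2 was highest and library 4 lowest in each of these 3 classes.

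The members were close to resting cells in quality, and somewhat deeper in every library. Their median was 4030 UMIs and 1490 genes, against 3694 UMIs and 1423 genes, with 5.24% and 5.54% mitochondrial UMIs. By library, the members' median depth was 5733, 4338, 3079.5 and 4295 UMIs, against 4909.5, 3539, 2787 and 4144 UMIs in resting cells. The members' UMIs summed to 1596074, 1314471, 1764620 and 1332257. Their median mitochondrial shares were 5.53%, 5.67%, 5.23% and 4.66%, against 6.35%, 6.14%, 5.60% and 5.10% in resting cells. Shares of cells with a UMI that are given without thinning are not adjusted for depth. A doublet score marked 16 members and 38 resting cells. In all, 52 barcode sequences occurred in more than 1 library, 8 members carried one, and no barcode was shared between members. One property differed clearly. Cells in which 7 secretory transcripts (Scgb3a1, Scgb3a2, Bpifa1, Bpifb1, Reg3g, Ltf and Lyz2) summed to 1% or more of UMIs were 12.3% of members (153 cells), 25.1% of resting cells (429 cells) and 26.2% of Serpinb2-positive cells. The comparisons were also made without those cells, and the values are given beside the calls this ended and the ratios it moved most.

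Most markers of cells outside the epithelium were rare in the members. Of 8 fibroblast markers, only Dcn had any UMI, and Col1a1, Col1a2, Col3a1 and Pdgfra were among those at 0. Dcn was not rare, at 152 to 222 CPM by library in members. The fibroblast markers summed to 152 to 286 CPM in resting cells and 69.6 to 105 CPM in Serpinb2-positive cells. The 12 leukocyte markers summed to 17.3 to 185 CPM by library in members and 305 to 652 CPM in resting cells, and Ptprc, Cd52, C1qa, C1qb and Nkg7 were at 0 in members. Of 6 endothelial markers Emcn, Cdh5 and Cldn5 were at 0, and of 5 thyroid and parathyroid markers Tg, Pth and Gcm2 were among those at 0. Markers of other epithelial cells were not rare. The 7 hillock markers summed to 16112 to 17689 CPM in members, 11840 to 15606 CPM in resting cells and 36628 to 48061 CPM in hillock-gated cells. Gene by gene they were split against resting cells, with 2 higher in all 4 libraries, 2 lower and a median log2 ratio of 0.01. The abundant Anxa1 was higher (0.62) and Cldn3 lower (-0.75). The oesophageal and stratified squamous markers summed to 187 to 444 CPM in members and 117 to 301 CPM in resting cells, and most of that was Krt6a in both classes. The 8 secretory markers outside the rule summed to 5371 to 14208 CPM in members and 22429 to 42779 CPM in resting cells. The neuroendocrine markers summed to at most 9.63 CPM in members and the tuft markers to 2.51 to 83.3 CPM.

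Basal markers were present in the members, in part because the rule asked for them. Krt5, the basal type II keratin and a gene of the rule, had a UMI in 82.5% of members, 77.4% of resting cells and 1.80% of ciliated-gated cells. The ciliated gate keeps the basal genes under 0.2%, so the last share is in part set by it. Trp63, which encodes p63 and was not in the rule, was at 25.1, 35.0, 35.7 and 36.8 CPM in members of libraries 1 to 4. Resting cells had 56.8, 82.5, 36.8 and 41.1 CPM, higher in every library, for a mean log2 ratio of -0.64. All ratios given here are members over the other class, taken within a library after adding 1 CPM and averaged over the 4 libraries. Trp63 had a UMI in 12.8% of members and 0.212% of ciliated-gated cells. Podoplanin (Pdpn), a surface marker of basal cells, was also lower in every library (mean log2 ratio -0.30). Dlk2, another basal marker, was at -0.60 with libraries on both sides of 0. The basal identity list as a whole was split against resting cells. Of its 16 counted genes, 3 were higher in all 4 libraries and 3 were lower. The median log2 ratio was -0.09, and ran from -0.30 to 0.02 under other settings. Snai2, Egfr and Itga6 of this list had mean log2 ratios of 0.84, 0.33 and 0.25.

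Krt17, a keratin of basal and injured squamous cells, was at 2969, 3267, 3774 and 2596 CPM in members and 2032, 2543, 2594 and 1840 CPM in resting cells. The members were higher within each library, 1.40-fold on average, with log2 ratios of 0.55, 0.36, 0.54 and 0.50. Snai2, which encodes the transcription factor Slug, known for its role in keratinocyte migration, was at 182, 221, 178 and 152 CPM in members and 131, 105, 88.0 and 85.7 CPM in resting cells. It was 1.79-fold higher on average, with the lowest member library above the highest resting library. Snai2 had a UMI in 43.5% of members, 25.7% of resting cells and 2.01% of ciliated-gated cells. After every cell was thinned to 2000 UMIs, which left out 49 members and 145 resting cells, the shares were 25.3% and 15.3%.

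Krt75, a keratin of hair follicles and nails, went against the label. It was at 83.3, 75.3, 57.8 and 39.0 CPM in members and 199, 130, 57.5 and 61.8 CPM in resting cells. The log2 ratios were -1.24, -0.78, 0.01 and -0.65, so only library 3 was level, and their mean of -0.67 was -0.27 without the cells rich in secretory transcripts. Few cells carried it, 8.72% of members and 9.71% of resting cells, and 5.29% and 6.59% after thinning.

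**Figure D2:**
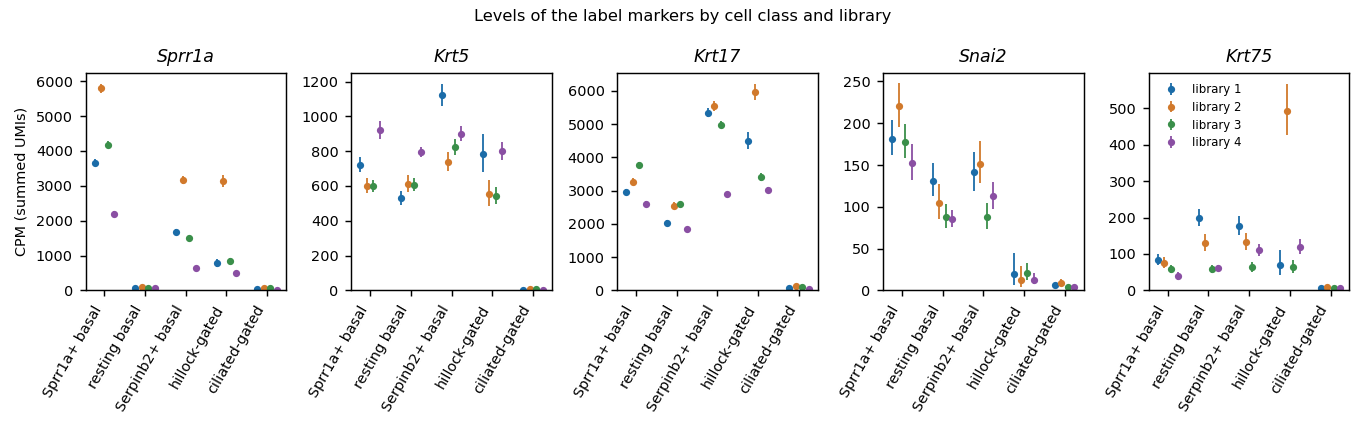
CPM of the 5 markers given with the name of these cells, one panel a gene, in 5 cell classes; each point is a library and each bar an exact 95% Poisson interval. Snai2 is at 152 to 221 CPM in Sprr1a-positive cells and 85.7 to 131 CPM in resting cells, whereas Krt75 is at 39.0 to 83.3 CPM against 57.5 to 199 CPM.

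Against resting basal cells, the genes that stood out most as higher in the members were partners of Sprr1a in the cornified envelope. A gene was called when it differed at least 2-fold in the same direction in all 4 libraries, among 7690 genes with 100 or more UMIs over both classes that were neither in the rule nor mitochondrial. Only 2 genes were called higher (0.0260%), Sprr2k and Ivl, both on the cornified envelope list. Sprr2k (ENSMUSG00000054215), another small proline-rich protein, was at 108, 57.8, 80.5 and 92.3 CPM in members and 27.3, 5.09, 18.4 and 16.5 CPM in resting cells. The 2 classes did not overlap, and the mean ratio was 5.37-fold. Ivl (ENSMUSG00000049128), the envelope scaffold involucrin, was at 50.8, 24.3, 28.9 and 24.8 CPM in members and 13.3, 5.09, 5.18 and 10.8 CPM in resting cells, 3.55-fold higher with no overlap.

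Few members carried either transcript. Sprr2k had a UMI in 7.91% of members, 2.40% of resting cells and 0.127% of ciliated-gated cells, and Ivl in 7.59%, 2.63% and 0.106%. Sprr2k rested on 513 UMIs in members and Ivl on 197. Each was short of 2-fold in some library under some settings. Ivl lost the call when cells rich in secretory transcripts were left out (mean log2 ratio 1.61), when cells were weighted equally and with 5 CPM added. Sprr2k lost it when cells were thinned to 2000 UMIs. The mean log2 ratio of Sprr2k stayed between 2.12 and 2.65 over the alternatives, and that of Ivl between 1.45 and 2.32. Sprr2 genes are near-identical copies, so reads could be split between them or dropped. Of the 24 envelope genes outside the rule, 17 had a UMI in members, and some were missing or nearly so. Sprr3 and Sprr1b had 0 UMIs, which allows up to 1.70 to 2.28 CPM by library, and Cnfn had 1 UMI.

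The other 6 counted cornified envelope genes were not called. Tgm1, a transglutaminase that cross-links the envelope, was at 20.05, 11.4, 16.4 and 10.51 CPM in members and 19.2, 9.17, 6.90 and 6.52 CPM in resting cells, higher in all 4 libraries but by 0.06 to 1.14 on the log2 scale. Sprr2e was at 20.05, 54.8, 6.23 and 3.002 CPM in members, while resting cells of libraries 1, 2 and 4 had 0 UMIs and those of library 3 had 40 UMIs in 5 cells (23.02 CPM). It was higher in 3 libraries and lower in library 3. Envoplakin (Evpl), periplakin (Ppl), Sbsn and Sprr2a3 had libraries on both sides of 0. Over the 8 genes, 3 were higher in all 4 libraries and none lower, with a median log2 ratio of 0.46, or 0.92 without the cells rich in secretory transcripts. Among all counted genes, 17.3% were higher in all 4 libraries and 17.0% were lower, with a median of -0.01, and every list below is to be read beside those shares. The shares were not matched to the lists by level, and genes with more UMIs can keep 1 direction more easily. Some lists exceeded both shares, such as heat shock and unfolded protein (33.3% higher and 33.3% lower) and antioxidant response (35.7% and 35.7%). A count above the shares is therefore not by itself a result about a list.

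The 17 genes called lower (0.221%) belonged mostly to secretory and glandular cells, and they moved with the cells rich in secretory transcripts. Scgb3a1, a secretoglobin of upper airway club cells, was at 109, 96.6, 316 and 131 CPM in members and 4335, 949, 3212 and 1033 CPM in resting cells. Bpifa1, an antimicrobial secreted protein, was at 927, 2453, 6905 and 4795 CPM against 24662, 13432, 28239 and 30583 CPM. Ltf, lactoferrin, was at 18.8, 14.5, 77.6 and 30.02 CPM against 521, 329, 564 and 795 CPM. The members were lower in every library for all 3 genes. The other genes called lower and named by rank were Dmbt1, Lyz2, Pigr, Muc4, Cyp4a12b, Reg3g, Bpifb1, Pon1, Pglyrp1, Cyp2a5, Tst and Psca, and the last 2 were Cxcl17 and Muc1. With both classes limited to cells under 1% secretory transcripts, none of the 17 was called. For Scgb3a1, Bpifa1, Ltf, Lyz2, Reg3g and Bpifb1 that is set by the limit itself, which uses these 6 genes. Of the 11 others, Muc4, Pon1, Cyp2a5 and Tst stayed lower at mean log2 ratios of -0.74, -0.73, -0.69 and -0.62. Cyp4a12b, Cxcl17, Pglyrp1 and Psca were at -0.23, -0.20, -0.18 and -0.09, and Dmbt1 and Pigr turned to 0.19 and 0.68. Muc1, the last of the 11, also lost its call, and its ratio under this limit is not given here. Whether the cells rich in secretory transcripts hold that RNA from inside or from outside was not tested.

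**Figure D3:**
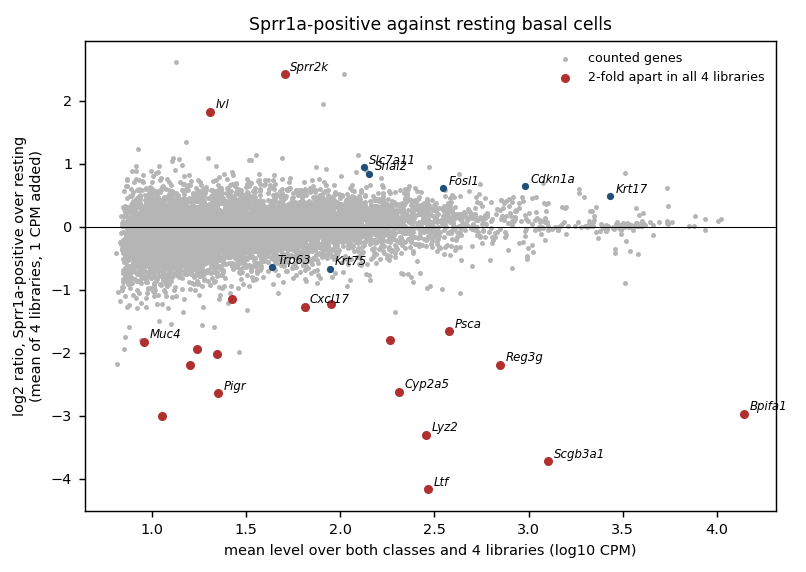
Each point is 1 of 7690 counted genes; the horizontal axis gives its mean level over both classes and 4 libraries (log10 CPM) and the vertical axis the log2 ratio of Sprr1a-positive over resting basal cells, as the mean of 4 libraries. Red points are at least 2-fold apart in all 4 libraries, 2 higher and 17 lower, and blue points are other genes named in the text.

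The other keratins split. Krt6a, an injury-induced keratin, was at 195, 367, 227 and 131 CPM in members and 104, 271, 193 and 83.4 CPM in resting cells. Krt16, its partner in activated epidermis, was at 267, 361, 378 and 232 CPM against 217, 251, 341 and 204 CPM. Both were higher in all 4 libraries, with mean log2 ratios of 0.55 and 0.29. The ratio of Krt16 ran from 0.02 when the cells were chosen on 50% of their UMIs to 0.71 without the cells rich in secretory transcripts, and keratins with near-identical copies may share reads. Krt80, a keratin of differentiating epithelia, was lower in all 4 libraries at -0.88, but at 0.25 with cells rich in secretory transcripts left out. Of the 6 stratified and wound keratins counted, 3 were higher in all 4 libraries (Krt17, Krt6a and Krt16) and 1 was lower, and the median was 0.16. Of 5 simple epithelial keratins none was higher and Krt7 alone was lower, at -0.17. Krt7 also turned, to 0.30, without the cells rich in secretory transcripts.

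Attachment to the basement membrane was next. Of 12 hemidesmosome and laminin genes, 5 were higher in all 4 libraries and 1 (Plec, plectin) was lower, with a median log2 ratio of 0.17. Dst, which encodes bullous pemphigoid antigen 1 of the hemidesmosome plaque, was at 502, 351, 383 and 506 CPM in members and 372, 287, 307 and 364 CPM in resting cells. It was 1.30-fold higher on average, and library 2 of the members lay within the range of resting cells. Integrin beta 1 (Itgb1) had a mean log2 ratio of 0.31. The integrin Itga2, a collagen receptor known from migrating keratinocytes, was at 77.1, 72.3, 40.2 and 39.0 CPM in members and 44.3, 27.5, 32.8 and 21.3 CPM in resting cells, 1.77-fold higher on average. Of the 10 migration integrins and adhesion genes, Itga2, Itgav and Sdc4 were higher in all 4 libraries and Itgb5 and Sdc1 were lower. Plaur, the urokinase receptor of pericellular proteolysis, was at 1180, 1284, 1339 and 1271 CPM in members and 985, 656, 993 and 1067 CPM in resting cells, a mean log2 ratio of 0.48 that was 0.86 without the cells rich in secretory transcripts. It and Plat, tissue plasminogen activator, were the 2 of 10 protease and matrix genes that were higher in all 4 libraries, and none was lower. Plat was at 5.25 to 14.5 CPM in members.

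The actin list had the largest count in one direction. Of 20 actin and contractile genes, 11 were higher in all 4 libraries and 1 (Cnn2, calponin 2) was lower, with a median of 0.19. Moesin (Msn), which links actin to the membrane, was at 298, 256, 220 and 265 CPM in members and 209, 161, 161 and 186 CPM in resting cells, higher in each library with no overlap and 1.45-fold on average. Alpha-actinin 1 (Actn1), zyxin (Zyx) and tropomyosin 1 (Tpm1) had mean log2 ratios of 0.36, 0.32 and 0.32. The size of each was below 2-fold. Of 20 junction and desmosome genes, 8 were higher in all 4 libraries and 2 were lower (median 0.11). Claudin 1 (Cldn1) was at 37.6, 42.6, 43.1 and 65.3 CPM in members and 25.1, 25.5, 38.0 and 54.7 CPM in resting cells. Claudin 3 (Cldn3), of luminal cells, ran the other way, at 131, 142, 179 and 197 CPM against 258, 251, 249 and 328 CPM, and its mean log2 ratio went from -0.75 to -0.10 without cells rich in secretory transcripts.

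Among growth factor genes, the EGF receptor ligand amphiregulin (Areg) was at 179, 140, 247 and 150 CPM in members and 94.5, 64.2, 104 and 119 CPM in resting cells. It was 1.86-fold higher on average with no overlap between the classes, though by only 0.33 on the log2 scale in library 4. The receptor gene Egfr was higher in all 4 libraries at a mean log2 ratio of 0.33. Of the 7 genes of this list, 3 were higher in all 4 libraries (Areg, Egfr and Erbb3) and none was lower, with a median of 0.17. The ligand Hbegf was at 756, 1087, 760 and 646 CPM in members and 806, 785, 688 and 578 CPM in resting cells, lower in library 1 and higher in the others. Of 12 TGF-beta pathway genes, Tgfb1, Inhba and Id2 were higher in all 4 libraries and the inhibitor Smad7 was lower. Inhba, which encodes the activin A subunit, was at 55.1, 83.7, 28.3 and 18.0 CPM in members and 29.5, 11.2, 20.1 and 17.0 CPM in resting cells, so its mean ratio of 2.08-fold came mainly from libraries 1 and 2. Without the cells rich in secretory transcripts the mean log2 ratio of Inhba went from 1.06 to 1.59 and that of Tgfb1 from 0.30 to 0.06. Of 12 YAP and TEAD genes, 3 were higher in all 4 libraries and none was lower, with a median of 0.02, and the classic target Ccn2 had libraries on both sides of 0.

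AP-1 genes did not move as one. Fosl1 encodes Fra-1, a Fos family protein known from migrating and squamous epithelial cells. Fosl1 was at 388, 514, 428 and 378 CPM in members and 255, 276, 308 and 270 CPM in resting cells, 1.53-fold higher with no overlap. Fos was at 156, 386, 400 and 221 CPM in members and 419, 849, 551 and 497 CPM in resting cells. It was lower within each library, 2.06-fold on average and short of 2-fold in library 3, with a mean log2 ratio of -1.04 that was -1.36 without the cells rich in secretory transcripts. Jun had libraries on both sides of 0, and Junb was lower in all 4 libraries at a mean log2 ratio of -0.09. Of the 24 AP-1 and early response genes, 9 were higher in all 4 libraries, among them Myc (0.43), Maff (0.33), Klf6 (0.32) and Atf3 (0.26), and 5 were lower.

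Of 10 inflammatory genes counted, 5 were higher in all 4 libraries and 1, Cxcl17, was lower (median 0.32), the latter at -1.27, or -0.20 without the cells rich in secretory transcripts. Il1rn, the interleukin 1 receptor antagonist, was at 60.1, 63.1, 31.2 and 32.3 CPM in members and 21.4, 21.4, 20.7 and 19.3 CPM in resting cells, 2.09-fold higher on average. Ptgs2, the inducible cyclooxygenase, was at 259, 367, 254 and 246 CPM against 150, 221, 159 and 188 CPM. For both genes the lowest library of members lay above the highest library of resting cells. Cxcl2, a neutrophil chemokine, was higher in all 4 libraries but mostly in library 3, with 124 CPM against 29.3 CPM. Of 15 alarmin and barrier genes, 8 were higher in all 4 libraries and 1 (Ly6a) was lower (median 0.17). Annexin A1 (Anxa1), a regulator of inflammation abundant in squamous cells, was at 7334, 6231, 6089 and 6541 CPM in members and 4848, 3124, 4333 and 4916 CPM in resting cells, 1.54-fold higher with no overlap. S100a10, the partner of annexin A2, was 1.31-fold higher on average. Ly6a, at -0.74, went to -0.17 without the cells rich in secretory transcripts.

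Stress genes went in both directions. The cystine transporter Slc7a11 was at 212, 128, 197 and 168 CPM in members and 112, 67.2, 108 and 78.3 CPM in resting cells, 1.93-fold higher on average with no overlap. Chac1, which degrades glutathione and is induced by ATF4, was at 138, 126, 124 and 128 CPM against 83.4, 67.2, 75.4 and 67.2 CPM. Trib3, another gene induced by ATF4, had a mean log2 ratio of 0.75, Ddit3 (CHOP) 0.42 and Atf4 itself 0.27, and all were higher in all 4 libraries. A further entry under the symbol Ddit3 had no UMI in either class. The heat shock gene Hspa1a was at 156, 177, 255 and 197 CPM in members and 398, 360, 472 and 311 CPM in resting cells, lower within each library with no overlap and 1.97-fold on average. Its near-copy Hspa1b was at -0.80, and the 2 may share reads. In the heat shock and unfolded protein list of 15 genes, 5 were higher and 5 lower in all 4 libraries, with a median of -0.02. Not all of these are named here.

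Of 14 antioxidant genes, 5 were higher and 5 lower in all 4 libraries, and the median of -0.13 turned to 0.14 without the cells rich in secretory transcripts. Haem oxygenase 1 (Hmox1) was at 605, 847, 674 and 420 CPM in members and 471, 603, 509 and 231 CPM in resting cells. The metallothioneins Mt1 and Mt2 had mean log2 ratios of 0.48 and 0.46, and the glutathione synthesis enzyme Gclc 0.42. Lower were the detoxifying enzymes Gstp1 (-0.40) and Aldh3a1 (-0.46), with Gclm, Txnrd1 and Gsta4. Of 16 hypoxia and glycolysis genes, 8 were higher in all 4 libraries and 1 (Ldha) was lower, with a median of 0.12. Ndrg1, a differentiation and hypoxia gene, was at 724, 919, 596 and 503 CPM in members and 473, 509, 382 and 327 CPM in resting cells, and the glucose transporter Slc2a1 was at 259, 353, 256 and 199 CPM against 202, 182, 155 and 152 CPM. Within each library both were higher in members, 1.6-fold and 1.52-fold on average.

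Cdkn1a, the cyclin-dependent kinase inhibitor p21, was at 850, 1348, 1428 and 1075 CPM in members and 607, 781, 867 and 717 CPM in resting cells, 1.56-fold higher on average. On the same list of p53 and cell cycle arrest genes, stratifin (Sfn), Sesn2, Zmat3 and Gadd45a were also higher in all 4 libraries. Cdkn2b, Ccng1 and Gadd45b were lower, out of 16 genes with a median of 0.01. Proliferation was rare in both classes. Mki67 had a UMI in 1.61% of members and 1.40% of resting cells. Of 10 cell cycle genes only Mcm3, at 9.13 to 12.5 CPM in members, and Ccnd2 were higher in all 4 libraries, and none was lower.

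The list of squamous and epithelial transcription factors was close to the background, while the Wnt, interferon and antigen presentation lists had lower medians. Of 20 squamous and epithelial factors, 5 were higher in all 4 libraries and 4 were lower, with a median of -0.01. Sox4, a factor of epithelial plasticity, was at 1231, 1409, 805 and 799 CPM in members and 982, 1052, 583 and 492 CPM in resting cells, a mean log2 ratio of 0.48 that was 0.19 without cells rich in secretory transcripts. Lower were Trp63, Ovol1, Barx2 (-0.62) and Hopx (-0.52, and -0.10 without those cells). Snai2 was the only factor of epithelial-mesenchymal transition with enough UMIs to count. Among 9 Notch genes the ligand Jag1 was higher in all 4 libraries (0.38, and 0.07 without those cells) and Jag2 lower (-0.21, and -0.49 without them). Of 6 Wnt genes none was higher, and Wnt4 (-0.53) and Fzd6 (-0.48) were lower. Their median was -0.23, but 0.12 when the cells were chosen on 50% of their UMIs. Interferon genes gave 1 higher (Gbp2) and 3 lower (Bst2, Ifi27 and Ifi27l2a) of 11, with a median of -0.18. Antigen presentation gave none higher and 3 lower of 7 (median -0.29), led by the immunoproteasome subunit Psmb8 at 10.0, 11.4, 10.8 and 15.8 CPM in members against 22.9, 24.4, 17.8 and 26.9 CPM. Of 11 lipid and sterol genes, 2 were higher in all 4 libraries, among them Fabp5, and Hmgcs1 and Scd2 were lower.

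**Figure D4:**
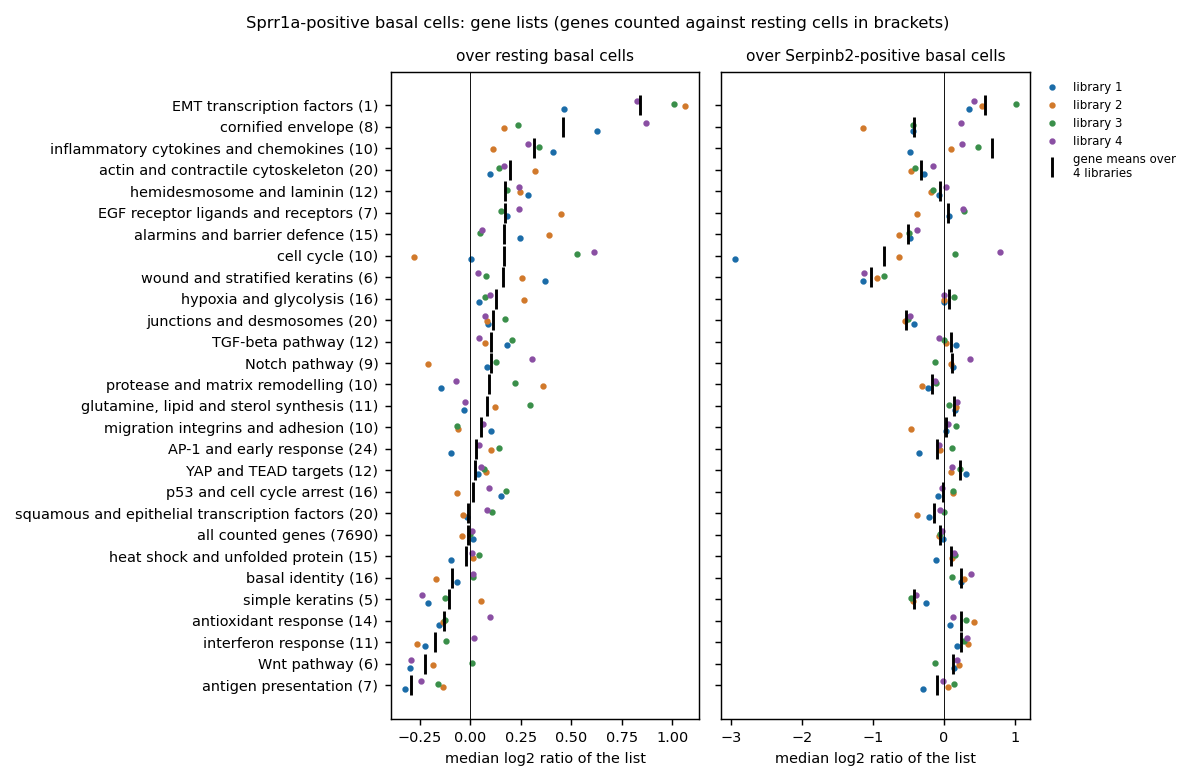
Median log2 ratio of the counted genes of each list, for Sprr1a-positive cells over resting basal cells (left) and over Serpinb2-positive basal cells (right); coloured points are the 4 libraries, black bars the median of gene means, and brackets the genes counted on the left. The cornified envelope list is at 0.46 on the left and -0.42 on the right, and the wound and stratified keratins are at 0.16 and -1.02.

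At a lower size of 1.5-fold in all 4 libraries, 16 genes were higher (0.208%) and 71 lower (0.923%). The 3 listed genes that this adds are Slc7a11, Chac1 and Ndrg1. Others were chosen after their values were seen. Ifi202b, of the AIM2-like DNA sensor family, was at 3452, 5054, 4939 and 3299 CPM in members and 1972, 2197, 3032 and 1984 CPM in resting cells, 1.82-fold higher with no overlap, and its family has near-identical copies. Rorb, a nuclear receptor, was at 43.9, 54.8, 56.1 and 43.5 CPM against 19.9, 18.3, 29.3 and 20.7 CPM, and missed the 2-fold size in library 3 alone. Hs3st1, a heparan sulfate sulfotransferase, was at 157, 215, 175 and 139 CPM against 90.1, 69.3, 89.2 and 60.1 CPM. The remaining genes included Ercc1, a DNA repair endonuclease subunit (2.14-fold), Tpx2, a spindle protein (2.55-fold, with 130 UMIs in members), and the pyrophosphatase Ppa1 (1.80-fold).

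Serpinb2-positive basal cells passed the same basal gate with Serpinb2 at 5 or more per 10000, and 380 of the 753 also reached the Sprr1a threshold. Among 7089 counted genes, 13 were called higher (0.183%) and 34 lower (0.480%), and 14.9% were higher and 20.5% lower in all 4 libraries. At 1.5-fold, 55 were higher (0.776%) and 105 lower (1.48%). Of 16 counted basal identity genes, 7 were higher in members in all 4 libraries and 3 were lower, with a median log2 ratio of 0.24. Those lower were Igfbp2 (-1.68), Itga6 (-0.35) and Cd44 (-0.28), and Krt5, a gene of the rule, was at -0.34 with libraries on both sides of 0. Pdpn, Dlk2, Trp63 and Ngfr were among those higher, with mean log2 ratios of 1.18, 1.44, 0.77 and 0.75. Pdpn was at 100, 87.5, 86.1 and 71.3 CPM in members against 41.3, 37.1, 34.4 and 36.4 CPM. Snai2 was higher too, at 0.59. For Trp63 and Pdpn the members thus lay between resting cells, which had more, and Serpinb2-positive cells, which had less.

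The genes called higher against Serpinb2-positive cells included apolipoproteins and defence genes. Apoe, which carries lipid, was at 1938, 1203, 1138 and 1846 CPM in members and 570, 425, 342 and 539 CPM in Serpinb2-positive cells, 3.23-fold higher. Ccl20, a chemokine for CCR6-positive leukocytes, was at 85.2, 80.6, 43.6 and 48.8 CPM against 17.3, 21.7, 3.37 and 16.01 CPM. Defb1, a beta-defensin, was at 194, 314, 145 and 152 CPM against 84.5, 88.7, 27.0 and 43.1 CPM. None of the 3 genes overlapped between these classes. Trf (transferrin, 3.82-fold), Pcdh17 (3.09-fold), Apoc1 (2.77-fold), Fads2b (2.52-fold) and Abi3bp (2.42-fold) were the other highest genes. Against resting cells Apoe and Ccl20 had libraries on both sides of 0, so the difference was seen against Serpinb2-positive cells and not against resting ones.

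Genes of stratified epithelia were mostly lower in the members. All 6 counted wound and stratified keratins were lower in all 4 libraries, with a median log2 ratio of -1.02. Krt16 was at 267, 361, 378 and 232 CPM in members and 1361, 1146, 1082 and 618 CPM in Serpinb2-positive cells, 3.32-fold lower and called. Krt6a was lower on average by 1.23 on the log2 scale and Krt17 by 0.54, so these keratins stood in the order resting, Sprr1a-positive and Serpinb2-positive in all 4 libraries. Of 21 junction and desmosome genes, 17 were lower in all 4 libraries and none was higher. Desmoglein 3 (Dsg3) was at 15.7, 13.7, 13.6 and 24.8 CPM in members against 108, 94.9, 77.5 and 62.9 CPM, and with Cldn1 (3.84-fold) and Cldn3 (2.67-fold) it was called lower. Of 20 actin genes 16 were lower and 1 higher in all 4 libraries, and of 15 alarmin and barrier genes 12 were lower and 1, Defb1, was higher. Msn, Zyx and Tpm1, which were higher than in resting cells, were among the actin genes lower here, at mean log2 ratios of -0.32, -0.49 and -0.33. Anxa1 was placed in the same way, with 13335, 9768, 9266 and 8815 CPM in Serpinb2-positive cells.

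The 8 genes named as lowest by rank were Cwh43, Ltf, Psca, Calml3, Kctd14, Cyp2b10, Car5b and Dmkn. Dmkn, dermokine of stratified epithelia, was at 16.3, 22.8, 19.8 and 19.5 CPM in members against 186, 156, 58.0 and 74.5 CPM. Calml3, a calmodulin-like protein of differentiating keratinocytes, was at 2.51, 3.04, 3.97 and 10.51 CPM against 29.8, 16.5, 39.1 and 37.5 CPM. Without the cells rich in secretory transcripts the mean log2 ratio of Dmkn went from -2.38 to -2.90, that of Calml3 from -2.50 to -2.82 and that of Ltf from -3.72 to -1.82. The cornified genes Sprr2k and Ivl were not part of this difference. Sprr2k was at 75.8, 90.8, 70.8 and 47.5 CPM in Serpinb2-positive cells and Ivl at 77.8, 37.1, 41.1 and 17.1 CPM, both with libraries on either side of the members. Envoplakin and periplakin were lower in members in all 4 libraries (-1.11 and -0.56). Since 380 of the 753 Serpinb2-positive cells also reached the Sprr1a threshold, Sprr1a itself was only 2.49-fold lower there on average.

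Within the members, some genes of the comparison with resting cells climbed with the Sprr1a level. The members split into 235 cells at 5 to 10, 251 at 10 to 20 and 753 at 20 or more Sprr1a UMIs per 10000. The top stratum held 62.2%, 71.8%, 66.5% and 38.2% of the members of libraries 1 to 4. Library 4 thus had both a lower share of members among its basal-gated cells and more of its members near the threshold. Since Sprr1a chose and split the cells, these values are a description. The median over libraries of Sprr2k was 17.4 CPM in resting cells and 21.6, 46.0 and 106 CPM in the rising strata, and that of Ivl was 7.98, 14.7, 24.1 and 35.4 CPM. Snai2 stood at 96.5, 122, 156 and 196 CPM and Cdkn1a at 749, 996, 1144 and 1259 CPM. Each of these 4 medians climbed at every step, but single libraries did not always do so. Sprr2k of library 1 was at 27.3, 7.27, 175 and 112 CPM, on 37, 2, 61 and 109 UMIs.

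Other genes differed between resting cells and the lowest stratum and had no steady order beyond it. Krt17 had medians of 2287, 3422, 2897 and 3108 CPM over the same 4 classes, and Anxa1 of 4591, 6242, 6188 and 6436 CPM. Areg was at 99.3, 200, 135 and 163 CPM. Krt16 was highest in the lowest stratum, at 234, 437, 364 and 223 CPM, and Krt75 at 96.1, 120, 36.9 and 58.2 CPM. Bpifa1 was at 26451 CPM in resting cells and 4900, 2674 and 2864 CPM in the strata. Between the top and bottom strata, among 4673 counted genes, 2 met the 2-fold rule as higher (0.0428%), Sprr2e and Ivl, and none as lower (0.00%). Both rest on 0 UMIs in bottom strata, so a 2-fold difference in every library was not shown. Sprr2e had no UMI in the bottom stratum of any library, which allows up to 10.45 CPM in library 3 and 5.99 CPM in library 4, against 8.65 and 8.63 CPM in the top stratum. Ivl had none in library 2, which allows up to 20.08 CPM against 28.7 CPM. In all 4 libraries 8.28% of genes were higher and 11.6% lower.

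**Figure D5:**
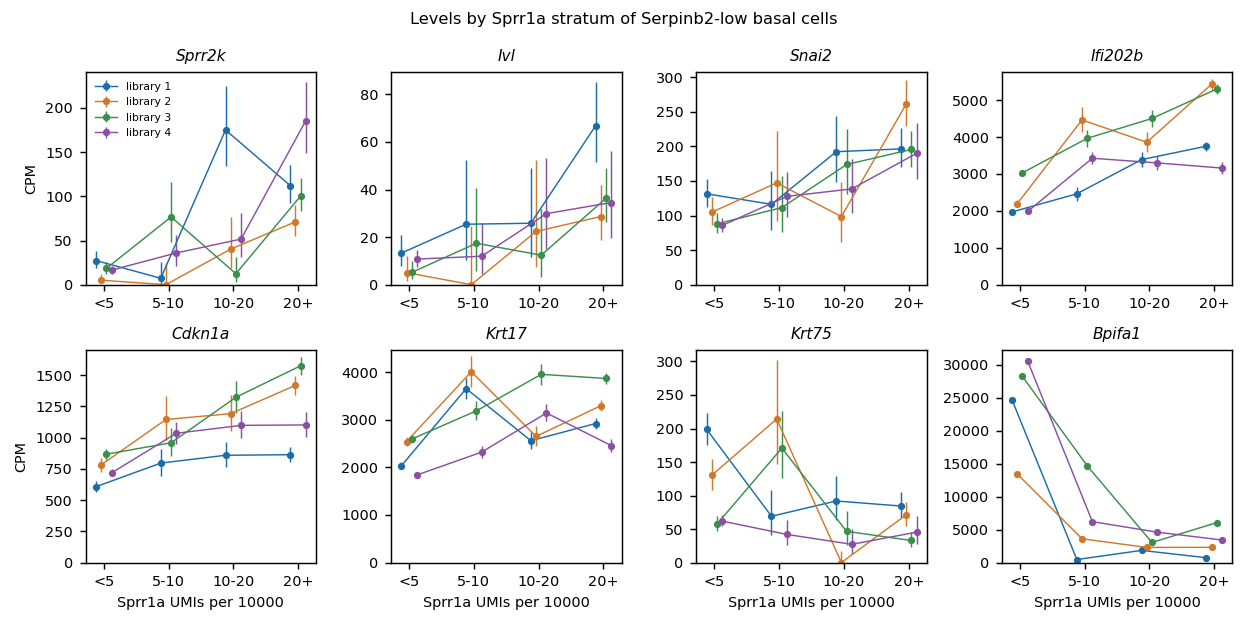
CPM of 8 genes (1 panel each) in resting cells (under 5) and in 3 strata of Sprr1a-positive cells by Sprr1a UMIs per 10000; each line is a library and bars are exact 95% Poisson intervals. Snai2 and Cdkn1a climb in the medians from 96.5 to 196 CPM and from 749 to 1259 CPM, while Bpifa1 drops at the threshold from 26451 to 4900 CPM.

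The members of the 4 libraries were also set side by side. Of 5300 genes with at least 100 UMIs in members, 445 (8.40%) had their highest and lowest library at least 2-fold apart with Poisson intervals that did not overlap. Of these, 116 met the same rule in resting cells, 64 of them with the same highest and lowest library. Library 1 was highest for 122 genes (2.30%), library 2 for 103 (1.94%), library 3 for 65 (1.23%) and library 4 for 155 (2.92%). As each library is a pool of other animals of another genotype, animal, genotype and library cannot be told apart. Of the genes on the fixed lists 41 differed in this way, among them Krt6a (195, 367, 227 and 131 CPM), Ccn2 (50.7, 132, 134 and 93.1 CPM), Krt75 and Inhba. Ivl was 2.08-fold apart between libraries 1 and 2.

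The 8 widest differences between libraries were mostly not epithelial programs. The haemoglobin genes Hbb-bs and Hba-a1 had 1113 and 863 UMIs in library 4 and 0 in the others. Of the Hbb-bs UMIs, 1112 lay in 1 cell, so they describe that droplet and not the class. The feature eGFP, a fluorescent reporter, had 312 UMIs in library 2, 13 each in libraries 1 and 4 and 0 in library 3, and resting cells had the same order of extremes. Dbi, an acyl-CoA binding protein, had 0 UMIs in library 3 and 321, 293 and 252 in the others, and was at 0 in resting cells of library 3 too. Rps18-ps6, a ribosomal pseudogene, had 201 UMIs in library 3 and 2 to 4 elsewhere, and Tpm3-rs7, a tropomyosin-related copy, had 74 and 91 UMIs in libraries 2 and 3 against 5 and 4. Wfdc18, a protein with a whey acidic domain, had 249 UMIs in library 1 and at most 15 elsewhere. Sprr2e was the only gene of the cornified envelope among the 8, at 54.8 CPM in library 2 and 3.002 CPM in library 4, which were also the libraries highest and lowest for Sprr1a.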

How the data were processed

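Tracheal cells of 4 mouse lines were profiled by droplet single-cell RNA sequencing (10x Genomics 3' v3.1, per the labels' protocols). The authors deposited 1 matrix of raw UMI counts for all libraries, written by Cell Ranger 6.0.1 per the file headers. The mouse build GRCm39 and Cell Ranger are named per the submitters' processing notes, and the annotation release is not given in the sources used here. No further step of the authors is recorded for these counts. Total counts per library ran from 39658153 to 53491773 UMIs over 4202 to 7360 barcodes.

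The gates were applied to these counts, UMIs were summed per class and library and given as CPM, and log2 ratios were taken within a library with 1 CPM added. Genes needed 100 UMIs over both classes. The 13 genes of the rule and 13 mitochondrial genes entered no count. A call meant 2-fold in the same direction in all 4 libraries, and no test was run. Intervals are exact (Poisson for CPM, Clopper-Pearson for shares, 95%) and cover counting error only. The limit for a count of 0 is 3 counts. Doublets were scored per library from simulated pairs at 0.8% per 1000 cells and kept, and an alternative left them out. The 28 gene lists and 16 marker lists, like the members, were chosen with earlier results of these data known. Genes were named by rank of the library with the smallest ratio: the 15 highest and lowest called genes against resting cells, 8 and 8 against Serpinb2-positive cells, the 8 widest between libraries, up to 4 a list, and any member needed to give a role. The scripts were tested on simulated data. Alternatives changed the cells, the thresholds, the scaling (TMM factors of edgeR 4.0.16, R 4.3.3), the pseudocount, the fold, the minimum and the libraries, and one, leaving out cells rich in secretory transcripts, was added after seeing the data. Python 3.11.15, numpy 2.4.6, scipy 1.17.1, pandas 2.3.3, scikit-learn 1.9.0 and matplotlib 3.10.9 were used. Malat1, Neat1 and Sprr2g were not matched to the deposited symbols. A few genes that the naming rule selects are not reported here, though they remain in the counts and medians.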

Additional observations from a re-analysis of the deposited data

How the results depend on the processing

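Counts of genes 2-fold apart in all 4 libraries moved with the settings. Against resting cells the 2 genes called higher became 1 with cells under 1% secretory transcripts, with cells weighted equally, thinned to 2000 UMIs or with 5 CPM added, 16 at 1.5-fold, and 2 to 4 without each library in turn (4 without library 3 and 4 without library 4). On the lists the 2 called genes became 1 under the same 4 settings, 5 at 1.5-fold and 2 to 3 without each library (3 without library 3). The 17 called lower became 1 with cells under 1% secretory transcripts, 8 with cells weighted equally, 8 thinned, 30 with no minimum, 71 at 1.5-fold and 17 to 28 without each library (28 without library 3). The 1 listed gene called lower, Cxcl17, was lost (0) with cells of 2000 UMIs or more, doublets left out, a mitochondrial limit of 10%, gating on 50% of UMIs, the secretory limit, equal weights, thinning, 5 CPM or TMM, and there were 4 at 1.5-fold and up to 2 without library 3. Against Serpinb2-positive cells the 13 called higher became 7 thinned, 8 with 5 CPM, 31 with no minimum, 55 at 1.5-fold and 17 to 23 without each library (23 without library 2), and the 3 listed became 6 gated on 50% of UMIs, 5 under the secretory limit, 8 at 1.5-fold and 3 to 6 without each library (6 without library 1 and 6 without library 4). The 34 called lower became 19 thinned, 22 with 5 CPM, 105 at 1.5-fold and 37 to 63 without each library (63 without library 4), and the 8 listed became 4 gated on 50% of UMIs, 20 at 1.5-fold and 8 to 14 without each library (14 without library 4). Between libraries the 445 became 80 at 3-fold and 794 with no minimum. With Sprr1a at 10 per 10000 the shares were 33.6%, 38.4%, 32.2% and 13.5%.

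Of 3435 gene values under alternatives, 3254 moved by less than the spread between libraries, 173 by more, and 8 reversed: under the secretory limit Dmbt1 (0.19), Lyz2 (0.0896), Pigr (0.68), Krt80 (0.25) and Krt7 (0.30, and 0.0264 with equal weights), thinned Amotl1 (-0.00864), and gated on 50% of UMIs Srebf1 against Serpinb2-positive cells (0.0756). The cause was not tested. Of 896 list medians 98 moved by more than that spread and 65 changed sign. Of the 65, 41 stayed within 0.1 of 0 and 22 were among the 98, such as antioxidant response (-0.13 to 0.14) and simple keratins (-0.11 to 0.32) under the secretory limit, Wnt genes (-0.23 to 0.12) gated on 50% of UMIs, hemidesmosome genes (0.17 to -0.0014) thinned and, against Serpinb2-positive cells, inflammatory genes (0.68 to -0.0894) without library 3. All class comparisons were paired within a library by their construction. No paired analysis was possible because, for libraries as replicates of a group, the labels give no shared numbers. Each genotype had 1 library, and depth limits rare transcripts such as Sprr2k, Ivl and Trp63.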
